A study of Mus musculus with 4 samples.

Results

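AP-1 is a family of transcription factors, and the 10 genes described here encode its main subunits in mouse. They were taken by symbol from the gene annotation deposited with the study: Jun, Junb and Jund form the JUN branch, Fos, Fosb, Fosl1 and Fosl2 the FOS branch, and Atf3, Batf and Batf3 the ATF/BATF branch. All 10 symbols were found, each with 1 gene, among 46078 genes in the file. The members hold 21 of its 110379 transcripts. The study itself asked how macrophages sense rhythmic force through PIEZO1, a stretch-activated ion channel. It sequenced 4 RNA libraries of bone marrow-derived macrophages, 1 each for KO cyclic, KO static, WT cyclic and WT static cells, after 6 h in a pressure chamber. KO macrophages came from Piezo fl/fl, LysM Cre+ mice and WT macrophages from Piezo1 fl/fl littermates without Cre, all on a C57/BL6 background. Both genotypes thus carry the floxed allele, and deletion in KO cells depends on a recombinase driven by a myeloid promoter. The macrophages were grown with M-CSF at 50 ng/mL, the cyclic pressure had an amplitude near 15 mmHg, and static pressure was held at the low point of the cycle. No expression value of any library was analysed here, so the depth of the libraries is unknown, and what follows describes gene structure, not a response to pressure or to the loss of Piezo1. The labelled cell type could not be set against its markers for the same reason. A gene model has no replicates and the members descend from shared ancestors, so values are given without tests.

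AP-1 proteins bind DNA as dimers through a bZIP domain, in which a basic region touches the DNA and a leucine zipper behind it holds the partners together. JUN proteins can pair with each other, whereas FOS proteins need a partner, usually a JUN protein. ATF3 and the BATF proteins also pair with JUN proteins, and BATF factors act together with IRF proteins in immune cells. Jun, Junb, Fos, Fosb and Atf3 are known as immediate early genes: their transcription starts within minutes of a stimulus from factors already present in the cell, and their RNAs are short-lived.

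The members shared a short signature in the basic region, which serves below as the point on which the reading frames were aligned. It spans 9 codons and was defined as an asparagine, 2 adjoining alanines starting 3 codons further on, then a cysteine or serine followed by arginine at the end. Each of the 10 reading frames held it exactly 1 time. The coding sequences below are from GENCODE M21 transcripts on GRCm38, 5′ to 3′, with those 5 fixed codons in capitals.
Jun (chr4:95050453-95050479, minus strand): AACcgcattGCCGCCtccaagTGCCGG
Junb (chr8:84977581-84977607, minus strand): AACaggctgGCGGCCaccaagTGCCGG
Jund (chr8:70699871-70699897, plus strand): AACcgcatcGCCGCCtccaaaTGCCGC
Fos (chr12:85475637-85475663, plus strand): AATaagatgGCTGCAgccaagTGCCGG
Fosb (chr7:19306595-19306621, minus strand): AACaagctgGCTGCAgctaagTGCAGG
Fosl1 (chr19:5454458-5454484, plus strand): AACaagctaGCAGCTgctaagTGCAGA
Fosl2 (chr5:32150466-32150492, plus strand): AACaagctaGCTGCAgccaagTGTCGG
Atf3 (chr1:191172411-191172437, minus strand): AATaaaattGCTGCTgccaagTGTCGA
Batf (chr12:85689310-85689336, plus strand): AATcgcatcGCTGCCcagaagAGCCGA
Batf3 (chr1:191100770-191100796, plus strand): AACcgggttGCAGCTcagaggAGCCGG
The JUN, FOS and Atf3 sequences carry a cysteine codon (TGC or TGT) at the eighth place, and both BATF genes carry a serine codon (AGC) there. No intron split the 27 bases in any member.

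The branches differed in how many introns interrupt the gene. Each gene was represented by its protein-coding transcript with the longest coding sequence. In that transcript the 3 JUN genes had 0 introns, the 4 FOS genes had 3 introns each, Atf3 had 3, and Batf and Batf3 had 2 each. Thus 3 of 10 members had a single exon, against 11.9% of 21910 protein-coding genes. That share was 6.98% without the olfactory and vomeronasal receptor genes and 7.13% in GENCODE M21. The median was 2.5 introns over the members and 6 over protein-coding genes.

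Jun (ENSMUSG00000052684), which encodes the founding JUN subunit c-Jun, covers 95049034 to 95052222 of chromosome 4 (minus strand). Its 1 exon of 3189 bases is the whole gene. Junb (ENSMUSG00000052837) is the shortest of the branch, with 1840 bases of chromosome 8 (84976909 to 84978748, minus strand). Jund (ENSMUSG00000071076), which in most tissues is expressed more steadily than the other JUN genes, has 2878 bases of the same chromosome (70697739 to 70700616, plus strand). Since these genes have no exon junction, a 75-base read from any of them cannot cross one, and 0% of the 75-base stretches of their transcripts do. A read from their RNA therefore looks the same as one from the genomic sequence.

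The FOS genes had the same number of introns but introns of very different length. Fos (ENSMUSG00000021250), the immediate early gene for c-Fos, covers 85473890 to 85477273 of chromosome 12 (plus strand). Its introns measured 754, 405 and 117 bases and summed to 1276 bases, at percentile 6.39 of the 19300 protein-coding genes with introns. Fosb (ENSMUSG00000003545), at 19302721 to 19310045 of chromosome 7 (minus strand), had introns of 1865, 453 and 1256 bases. Their sum of 3574 bases stood at percentile 17.1. Fos and Fosb were thus the members with introns that had the least intron sequence to transcribe.

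Fosl1 and Fosl2 encode the FOS-related proteins FRA-1 and FRA-2, which lack the strong transactivation domain of c-Fos. Fosl1 (ENSMUSG00000024912), at 5447703 to 5455945 of chromosome 19 (plus strand), had introns of 2104, 4061 and 371 bases, 6536 bases in all (percentile 27.9). Fosl2 (ENSMUSG00000029135), at 32135801 to 32157842 of chromosome 5 (plus strand), had introns of 10019, 3344 and 2142 bases, 15505 bases in all (percentile 48.7). In Fosb, and in Fosl2, intron 1 was the longest, as it was in Fos; in Fosl1 it was intron 2. The branch median was 5055 intron bases, with a range from 1276 in Fos to 15505 in Fosl2.

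The ATF/BATF genes had 2 or 3 introns, and the longest in each gene lay at percentile 84.7 or higher among all introns. Atf3 (ENSMUSG00000026628), a stress-induced factor that often acts as a repressor, covers 191170296 to 191218039 of chromosome 1 (minus strand). The introns of its representative transcript measured 5618, 4748 and 695 bases and summed to 11061 bases (percentile 40.1). Batf (ENSMUSG00000034266), needed for several T helper cell fates, spans 85686669 to 85709087 of chromosome 12 (plus strand). It had introns of 2294 and 19170 bases, and the second of them was the longest intron in any representative transcript of the members, at percentile 95.4 of 185180 introns. Batf3 (ENSMUSG00000026630), a factor of conventional dendritic cells, spans 191097847 to 191108945 of chromosome 1 (plus strand), with introns of 2200 and 7618 bases. Summed intron length stood at percentile 57.4 in Batf and 37.2 in Batf3.

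Introns took up 95.7% of the primary transcript of Batf, 92.5% of that of Batf3 and 84.8% of that of Atf3. In the FOS branch the share was 79.3% in Fosl1, 70.3% in Fosl2, 48.8% in Fosb and 37.7% in Fos. In the JUN branch it was 0% by construction. The order of the branches by intron share is therefore free of overlap, with every JUN gene below every FOS gene and every FOS gene below every ATF/BATF gene. Total intron length overlapped between the FOS and ATF/BATF branches, because Fosl2 with 15505 bases had more than Atf3 with 11061 and Batf3 with 9818. The plot of gene models to scale shows how compact the JUN genes and Fos are.

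**Figure D1:**
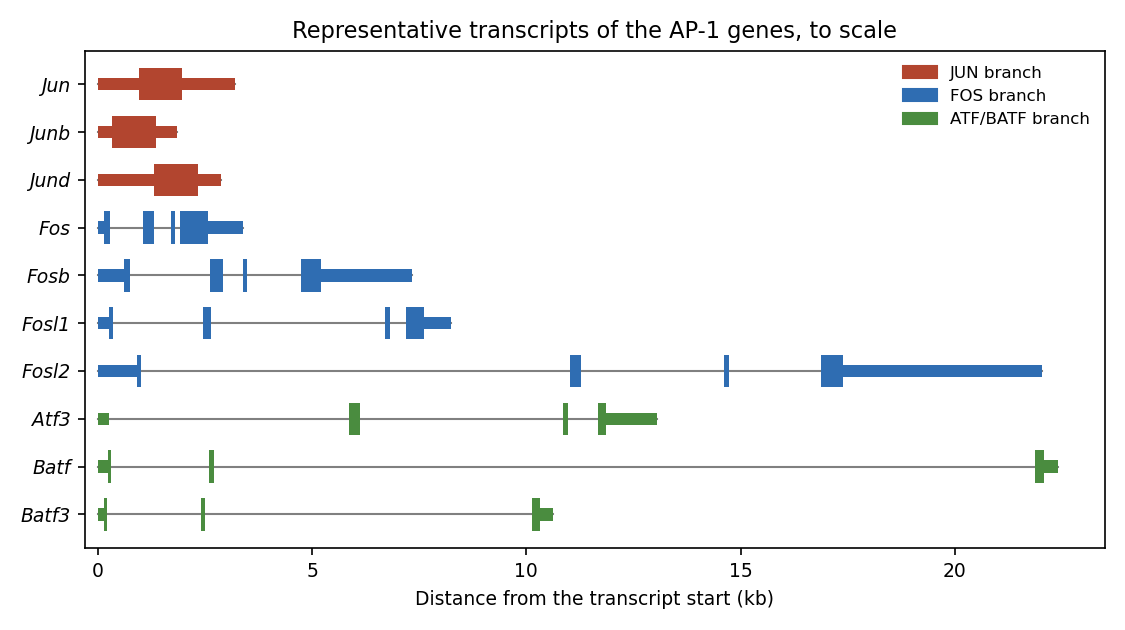
Exons (boxes) and introns (lines) of the representative transcript of each AP-1 gene, by distance from the transcript start in kb; tall boxes are coding and low boxes untranslated. The 3 JUN genes are single boxes, the 4 FOS genes have 4 exons each, and Batf is dominated by an intron of 19170 bases.

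**Figure D2:**
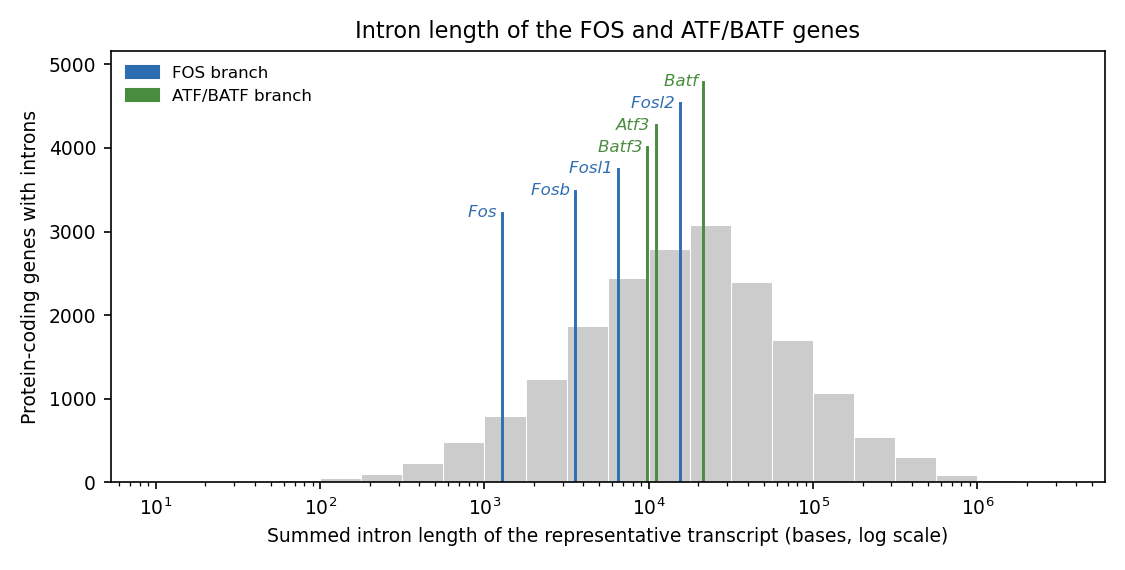
Number of protein-coding genes with introns (grey bars) by summed intron length of the representative transcript in bases on a log scale, with the 7 members that have introns as vertical lines whose height carries no value. Fos lies in the lower tail at 1276 bases, and Batf lies highest of the members at 21464 bases.

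The introns fell at shared places in the reading frame. The basic-region signature lay in exon 3 of all 4 FOS genes and of Atf3, and in exon 2 of Batf and Batf3. That exon measured 108 bases in each of Fos, Fosb, Fosl1, Fosl2 and Atf3, with 45 bases before the asparagine codon and 63 bases from that codon to the next intron. In Batf and Batf3 it measured 105 bases, with 42 bases before the asparagine codon and again 63 bases from it on. The downstream intron therefore sat at the same base of the alignment in 7 of 7 members with introns, near the start of the zipper. The joined exons around it are given below as 15 bases on each side, with the codons that flank the intron in capitals.
Fos around intron 3 (chr12:85475700-85475816, plus strand): gatacactccaaGCGGAGacagatcaactt
Fosb around intron 3 (chr7:19305303-19306558, minus strand): gatcgacttcagGCGGAAactgatcagctt
Fosl1 around intron 3 (chr19:5454521-5454891, plus strand): gacttcctgcagGCGGAGaccgacaaattg
Fosl2 around intron 3 (chr5:32150529-32152670, plus strand): gagaagctgcagGCGGAGaccgaggagctg
Atf3 around intron 3 (chr1:191171680-191172374, minus strand): gagtgcctgcagAAAGAGtcagagaaactg
Batf around intron 2 (chr12:85689373-85708542, plus strand): gacacccttcacCTGGAGagtgaggacctg
Batf3 around intron 2 (chr1:191100833-191108450, plus strand): gacaagctccacGAGGAGcacgagagcctg
In the FOS genes the codon before the intron was GCG each time, and the codon after it was GAG or GAA in all 7 genes.

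The intron at this place ranged from 117 bases in Fos to 19170 bases in Batf. It measured 1256 bases in Fosb, 371 in Fosl1, 2142 in Fosl2, 695 in Atf3 and 7618 in Batf3. Its position was thus fixed while its length was not. All 18 coding introns of the members lay between codons, called phase 0, so that each exon between them holds whole codons. Among 164616 coding introns of protein-coding genes, 45.5% were in phase 0. Of 2997 protein-coding genes with 2 or 3 coding introns, 11.1% had each of them in phase 0, as did 7 of 7 members with introns. The members descend from shared ancestors, so their introns cannot be counted as 18 independent events. The ancestry of each intron was not tested.

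**Figure D3:**
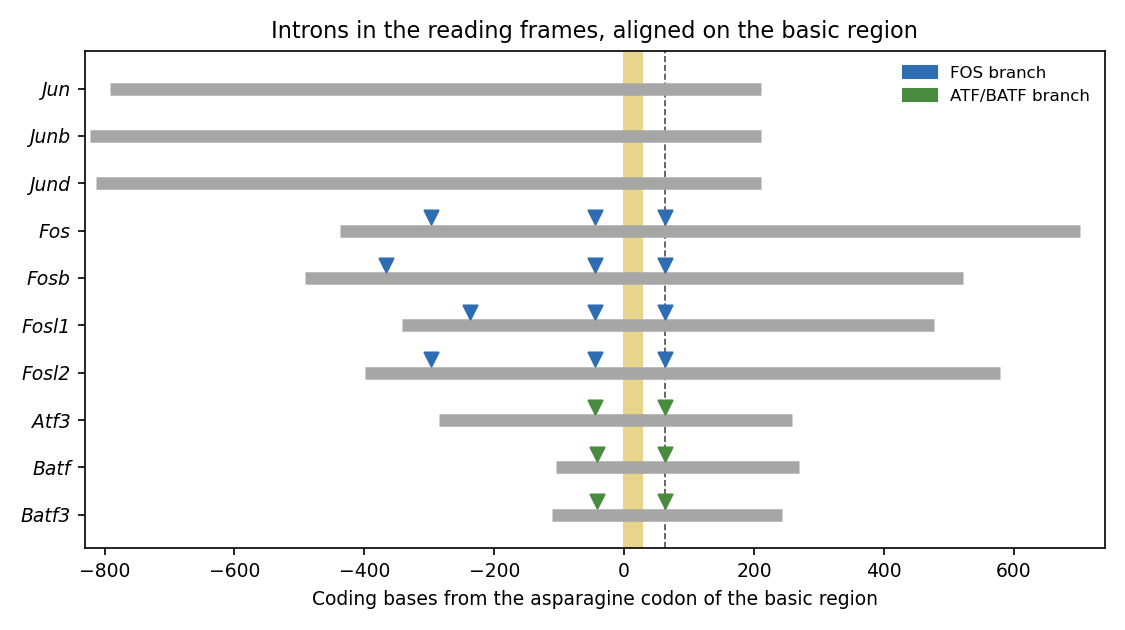
Introns (triangles) along the reading frame of each AP-1 gene (grey bars), in coding bases from the asparagine codon of the basic region; the yellow band marks the 27-base signature and the dashed line the place 63 bases from it. All 7 genes with introns have one on the dashed line, and the JUN genes have 0.

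The same search was made in a list of other bZIP genes. Of 24 symbols in that list, 23 had a protein-coding model, since Cebpd is annotated as a pseudogene in the deposited file. The signature was found in 12 of them, all 12 with coding introns. An intron 63 bases from the asparagine codon occurred in 2 of these 12 genes, Batf2 and Jdp2, which are close relatives of the members, and both also shared the 42 bases of Batf before that codon. Atf1, Creb1 and Crem each had an intron 5 bases from the start of the asparagine codon, inside the signature. In Atf2 and Atf7 the first intron behind it lay at 102 bases, and in Bach1 and Bach2 at 78 bases.

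Intron 1 of the FOS genes was partly shared by its distance to the basic region. Relative to the asparagine codon it lay at coding base -297 in both Fos and Fosl2, at -366 in Fosb and at -237 in Fosl1. Counted from the start codon, it fell after codon 47 in Fos, codon 42 in Fosb, codon 35 in Fosl1 and codon 34 in Fosl2. The codon before intron 1 was CAG in every FOS gene. Exon 2, which lies between, measured 252 bases in Fos and Fosl2, 321 in Fosb and 192 in Fosl1. Distance alone therefore does not show whether the place of intron 1 differs between these genes. Only Atf3 among the representative transcripts of the members had an intron in the 5′ UTR, against 31.3% of protein-coding genes, and it ended 4 bases before the start codon at the junction of exons 1 and 2. None of the 10 members (0 genes) had an intron in the 3′ UTR, a feature of 4% of protein-coding genes. The last exon of each FOS and ATF/BATF gene therefore held the whole 3′ UTR.

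The basic region sat late in JUN proteins and earlier in the others. Its asparagine was residue 265 of 334 in Jun, 275 of 344 in Junb and 272 of 341 in Jund, at 79.3% to 79.9% of the protein. In the FOS branch it was residue 147 of 380 in Fos, 165 of 338 in Fosb, 115 of 273 in Fosl1 and 134 of 326 in Fosl2. It lay at residue 96 of 181 in Atf3, 36 of 125 in Batf and 38 of 118 in Batf3. FOS proteins thus carry a long tail behind the zipper, and the proteins of Batf and Batf3 are little more than a bZIP domain. This does not extend to Batf2 of the comparison list, which has the asparagine at residue 28 and 834 coding bases.

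Over 61 codons around the asparagine, aligned without gaps, the JUN and FOS branches also separated by sequence, but the ATF/BATF branch did not. Pairs within the ATF/BATF branch were identical at 53% to 67.2% of bases, which overlapped the 45.9% to 64.5% between FOS and ATF/BATF genes. Pairs within the JUN branch were identical at 69.9% to 76% of 183 bases and pairs within the FOS branch at 67.8% to 77.6%. JUN genes matched FOS genes at 42.1% to 49.7% and ATF/BATF genes at 40.4% to 47%. Atf3 matched the 4 FOS genes at 60.1% to 64.5% (Fosb the lowest, Fosl2 the highest), and matched Batf at 53% and Batf3 at 57.9%. Batf and Batf3 were identical at 67.2%. By this measure, as by its 108-base exon, Atf3 was closer to the FOS genes than to the BATF genes.

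Coding length separated the ATF/BATF members from the JUN and FOS members. With the stop codon, Jun had 1005, Junb 1035 and Jund 1026 coding bases, a spread of 30 bases around a median of 1026. Fos had 1143, Fosb 1017, Fosl1 822 and Fosl2 981, with a median of 999. Atf3 had 546, Batf 378 and Batf3 357, with a median of 378, and Batf3 stood at percentile 5.39 of protein-coding genes. The shortest FOS gene, Fosl1, still had more coding bases than the longest ATF/BATF member, Atf3, whereas JUN and FOS overlapped. Batf2, which is not a member, had 834 coding bases, more than Fosl1, so the separation holds for the members only.

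The 5′ UTRs of several members were long. They measured 951 bases in Jun, 319 in Junb and 1319 in Jund, then 150 in Fos, 614 in Fosb, 248 in Fosl1 and 903 in Fosl2, and 252 in Atf3, 242 in Batf and 134 in Batf3. Jund stood at percentile 99.4 of 19028 protein-coding genes with both UTRs, Jun at 98.4, Fosl2 at 98.2 and Fosb at 95. The member median was 285.5 bases, against 154 over those genes. Values for Junb, Jund, Fosb and Fosl1 depend on the release: GENCODE M21 gives 289, 109, 620 and 404 bases for the same transcripts. For Jund the starts lie 1210 bases apart, and RefSeq has the same start as the deposited model. The rank of its 5′ UTR therefore depends on which start is used.

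The 3′ UTR varied most within the FOS branch. It measured 815 bases in Fos, 2120 in Fosb, 637 in Fosl1 and 4653 in Fosl2, where it made up 71.2% of the transcript and stood at percentile 97.3. In the JUN branch it measured 1233 bases in Jun, 486 in Junb and 533 in Jund. In the ATF/BATF branch it measured 1186 bases in Atf3, 335 in Batf and 310 in Batf3. The member median of 726 bases lay near that of protein-coding genes, 733.5 bases. Mature transcripts ran from 801 bases in Batf3 to 6537 bases in Fosl2.

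**Figure D4:**
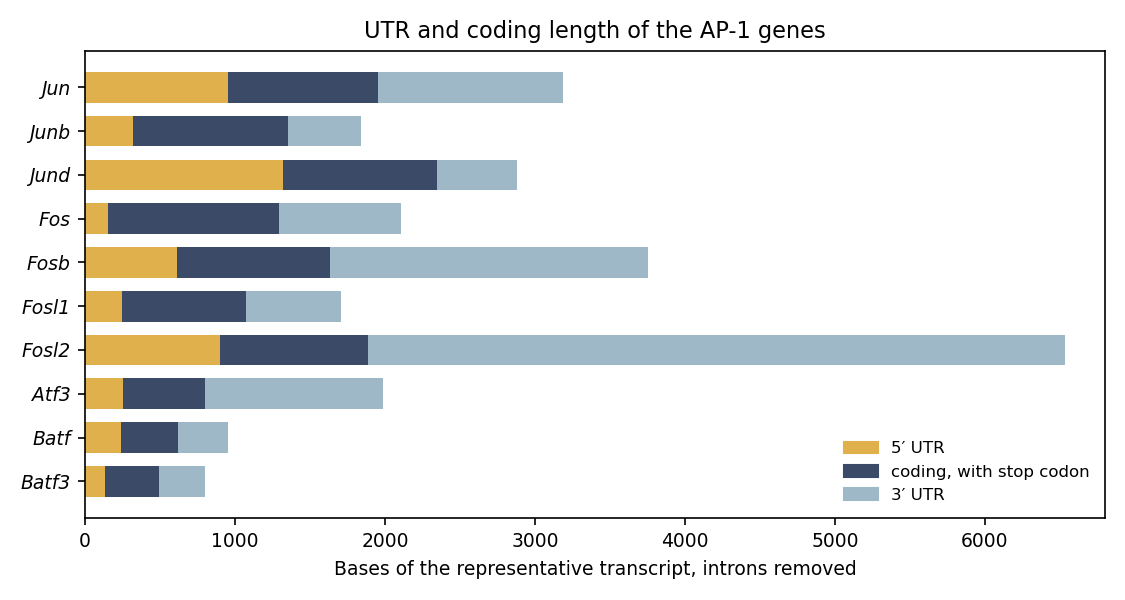
Bases of the 5′ UTR, coding sequence and 3′ UTR in the representative transcript of each AP-1 gene, introns removed. Coding length is 1005 to 1035 bases in the JUN genes, 822 to 1143 in the FOS genes and 357 to 546 in Atf3, Batf and Batf3, while Fosl2 has the longest 3′ UTR at 4653 bases.

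AU-rich elements in the 3′ UTR are known to speed the decay of early-response RNAs, and their core is the pentamer ATTTA. It was counted on the sense strand of the 3′ UTR in GENCODE M21. At least 1 copy was found in 8 of 10 members, against 61.9% of 20099 protein-coding genes with both UTRs. Jun had 4 copies, Junb 2 and Jund 1. Fos had 4, Fosb 1, Fosl1 1 and Fosl2 8, Atf3 had 3, and Batf and Batf3 had 0.

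Per kb of 3′ UTR, Fos had the most of the members with 4.91 copies (percentile 91.8), followed by Junb with 4.12, Jun with 3.24 and Atf3 with 2.53. The other members had 1.88 in Jund, 1.72 in Fosl2, 1.57 in Fosl1 and 0.466 in Fosb. The median over protein-coding genes was 1.14 copies per kb. Density and count ranked the members differently: Fosl2 had the most copies and the longest 3′ UTR, but 5 other members had a higher density. The longer nonamer TTATTTATT, which contains the pentamer, was found in 2 of 10 members, Fos and Fosl2, against 6.97% of the same genes. Those sites are shown with 10 bases on each side and the nonamer in capitals.
Fos (chr12:85477103-85477131, plus strand): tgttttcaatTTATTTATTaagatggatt
Fosl2 (chr5:32156871-32156899, plus strand): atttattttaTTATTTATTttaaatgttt
The site began at base 655 of 815 in the 3′ UTR of Fos and at base 3692 of 4653 in that of Fosl2. A match describes the sequence and does not show that the site is used.

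Transcript variants were few in the deposited annotation. A single transcript was annotated for 6 of 10 members, against 38.7% of protein-coding genes. These were Jun, Junb, Jund, Fosb, Fosl1 and Batf. In GENCODE M21 it was 2 of 10, Jun and Jund, against 20.2% of 21866 protein-coding genes in that release. Fos had 4 transcripts, Fosl2 and Atf3 had 3 each, and Batf3 had 5. Of the 21 transcripts, 11 were protein-coding, 7 were processed transcripts without a reading frame and 3 had retained introns, so Atf3 was the one member with more than 1 protein-coding transcript.

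The 3 noncoding Fos transcripts, Fos-002, Fos-003 and Fos-004, began inside the gene at 85474911 or 85474691, downstream of the start at 85473890. All 3 shared the introns of 405 and 117 bases. Fosl2-002 was a single exon of 3472 bases, and Fosl2-003 held both downstream introns of the coding transcript. For Batf3, all 5 transcripts held the intron of 7618 bases, and they started at 5 different sites. The protein-coding Atf3 transcripts, Atf3-001 and Atf3-003, had the same 546 coding bases and differed in their first exon. Atf3-003 started at 191218039, which is 34699 bases upstream of the start of Atf3-001, and its first intron measured 40395 bases against 5618.

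Annotated variants of Fosb differed most between releases. GENCODE M21 listed 7 transcripts, 6 of them protein-coding, against 1 in the deposited file. Among them, Fosb-206 has the form of ΔFosB, a truncated splice product of Fosb best known for its slow accumulation in stimulated neurons. In Fosb-206 a further intron of 140 bases (chr7:19305007-19305146, minus strand) is removed from within the exon that the deposited annotation gives as exon 4. It starts after 711 coding bases, well behind the basic region, and the next codon is a stop. The sequences below show the splice sites as they stand in the unspliced exon, with the intron's first and last 2 bases in capitals, and the joined transcript with its stop codon in capitals.
Fosb donor (chr7:19305137-19305156, minus strand): gctggccgagGTgagagatt
Fosb acceptor (chr7:19304997-19305016, minus strand): ttacacacAGtgaagttcaa
Fosb-206 joined: ggcccgctggccgagTGAagttcaagtcct
The reading frame of Fosb-206 has 237 codons, all shared with the first 237 of 338 in Fosb-201, and so leaves out the last 101. The annotated models also differ at their ends: Fosb-206 has 1090 exonic bases and Fosb-201 has 3782, and most of the difference lies in the 3′ UTR. Reads from bases that both models hold do not tell these forms apart. Counts for Fosb against the deposited file would combine them.

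**Figure D5:**
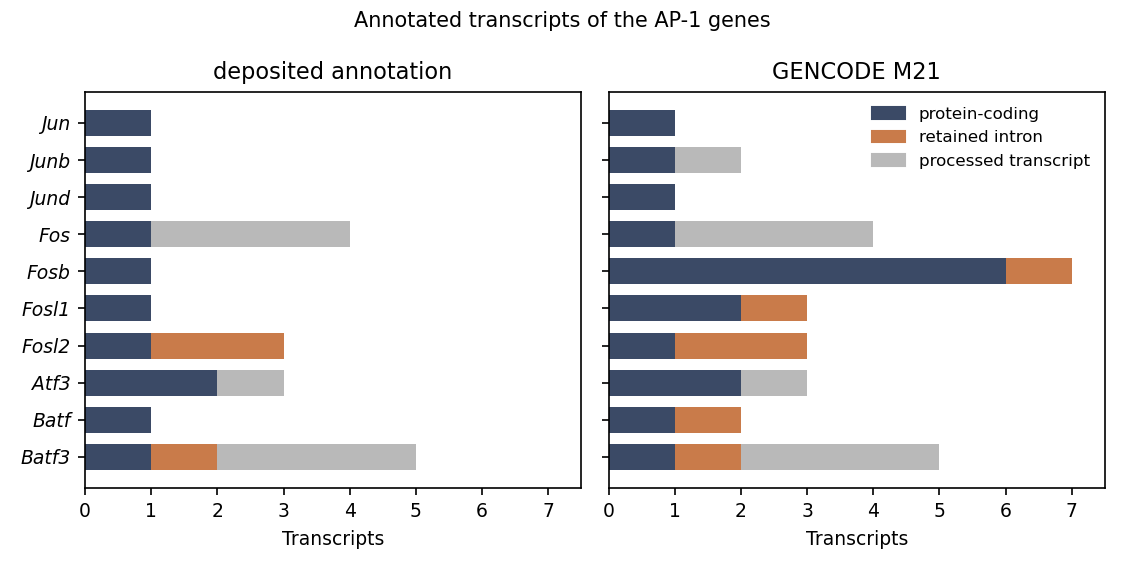
Number of annotated transcripts of each AP-1 gene by class, in the deposited annotation (left) and in GENCODE M21 (right). Fosb has 1 transcript on the left and 7 on the right, while the counts for Fos, Fosl2, Atf3 and Batf3 are the same on both sides.

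The other members whose transcript number differed were Junb with 1 in the deposited file and 2 in GENCODE M21, Fosl1 with 1 and 3, and Batf with 1 and 2. The Junb addition, Junb-202, is a noncoding transcript with an intron of 1567 bases. It starts at 84976542, beyond the deposited end of Junb at 84976909 on this minus-strand gene, and so shares no base with the coding exon. Coding coordinates of the representative transcript were the same in both annotations for 10 of 10 members, and all exon coordinates for 6. Differences between releases therefore touched the ends and the variants, not the reading frames of the representative transcripts. Among the variants, GENCODE M21 added shorter reading frames for Fosb and Fosl1. Some of the added Fosb variants leave out the exon that holds the basic-region signature.

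The share of a transcript that a spliced read can show followed the exon structure. Of all 75-base stretches, 20.4% crossed an exon junction in Batf3, 16.8% in Batf and 11.6% in Atf3. The FOS values were 13.6% in Fosl1, 10.9% in Fos, 6.04% in Fosb and 3.43% in Fosl2. The median over protein-coding genes was 20.2%. Long 3′ UTRs lower this share, and Fosl2 and Fosb have the longest among the members.

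Comparison lists put the members beside other genes of related kinds. The 23 other bZIP genes had a median of 3 introns, from 0 in Cebpa to 15 in Atf6. The 16 other immediate early genes had a median of 2 introns, from 0 in Ier2 to 6 in Nr4a1, and 2 of them (Ier2 and Ier5) had a single exon. The median sum of introns was 9599 bases in the bZIP list and 1118.5 bases in the immediate early list. Of the members named above as immediate early genes, only Fos with 1276 bases lay close to the latter median. Jun and Junb had 0 intron bases, Fosb had 3574 and Atf3 had 11061. A single exon was therefore found in 3 of 10 members and 2 of 16 other immediate early genes, and these counts are too small to rank.

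Several members lie close to each other. Fos and Batf are on the same strand of chromosome 12 with 209 kb between them, and the single protein-coding gene in that gap is Jdp2, another bZIP gene (ENSMUSG00000034271, 85599105 to 85639878). Jdp2 is 122 kb from Fos and 46.8 kb from Batf. Batf3 and Atf3 on chromosome 1 are 61.4 kb apart and transcribed towards each other, with Fam71a as the single protein-coding gene between them. The other members on a shared chromosome, Jund and Junb, are 14.3 Mb apart with 165 protein-coding genes between. All 5 genes of these close groups (Fos, Jdp2, Batf, Atf3 and Batf3) have the intron 63 bases from the asparagine codon. So do Fosb, Fosl1, Fosl2 and Batf2 on other chromosomes, so this intron is not particular to the close groups.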

How the data were processed

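The labels describe 4 polyA RNA libraries sequenced as paired 75-base reads. Software named in the submitters' processing notes is CASAVA 1.8, FastQC, TopHat2 with Bowtie2, and Cufflinks, for the builds GRCm38 and mm10, with no roles stated. The deposited GTF annotation holds start and end coordinates on GRCm38, and library values fill 0 of its columns. Which Ensembl release it comes from is not stated there.

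Exon, coding and stop-codon lines were read in Python 3.11.15 (numpy 2.4.6, scipy 1.17.1). Coding length includes the stop codon. A percentile is the share of genes below the value, with ties split evenly, over protein-coding genes on chromosomes 1 to 19, X, Y and MT. UTR percentiles use genes with both UTRs. Sequences came from GENCODE M21 transcripts, an annotation of the same build, and promoters from RefSeq on GRCm38.p6. Reading frames were translated to find the basic region. The scripts were tested on simulated data and recovered the introns and lengths of 400 of 400 gene models.

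Members, gene lists and rules were chosen with earlier results of these data known. All 10 members are named. For the comparison lists the rule names the genes with the fewest and most introns; other genes named there were chosen after their values were seen. Comparisons of the 61-codon window, intron phase, promoters and GC content were also added after the gene models had been seen. No test was run.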

Additional observations from a re-analysis of the deposited data

How the results depend on the processing

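No paired analysis was possible because the deposited file holds no library value and each group has 1 library, and for the same reason no replicate could be left out. Choosing the protein-coding transcript with the most exonic bases changed 0 of 16 values. This choice could not change them, since only Atf3 had more than 1 such transcript and its representative was also the longest. Counting distinct introns over all transcripts gave the ATF/BATF genes a median of 5 in place of 2, and the gene span outside any exon gave them 21464 bases in place of 11061, since more transcripts enter. In GENCODE M21 the median 5′ UTR was 289 bases in the JUN and 512 in the FOS branch, against 951 and 431 in the deposited file. The FOS 3′ UTR median was 1480 against 1467.5 bases, and FOS transcripts had a median of 3.5 against 2. In the JUN branch the 5′ UTR differed in Junb and Jund. In the FOS branch these UTR lengths and transcript numbers differed in Fosb and Fosl1 only. Why the releases differ for these genes was not tested. Protein-coding transcripts alone gave medians of 1 in the FOS and 1 in the ATF/BATF branch, against 2 and 3. Counting the stop codon as UTR moved the coding medians by construction to 1023 (JUN), 996 (FOS) and 375 (ATF/BATF), and the 3′ UTR medians to 536, 1470.5 and 338. The single-exon members stayed at 3, except at 2 where every GENCODE M21 transcript had to be a single exon, a setting added after seeing the data. The single-exon share of protein-coding genes was 11.9% (exact binomial 95% interval 11.5 to 12.3), 7.13% in GENCODE M21 and, in another added setting, 6.98% without olfactory and vomeronasal receptor genes. Sequencing depth does not enter any of these values.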

Other observations

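RefSeq promoters, from 250 bases before to 50 after the start on GRCm38.p6, were available for 9 of the 10 members. The deposited start was the same base as the RefSeq start for Jun, Junb, Jund, Fos and Fosb. It lay 7 bases upstream of it for Atf3, 51 for Batf, 89 for Batf3 and 671 for Fosl2. For Jund the start in GENCODE M21 lies 1210 bases downstream of the RefSeq start, outside the promoter window. The TATA-box letters TATAAA, searched on the sense strand, were found in 2 of 9 member promoters, Fos and Junb, against 8.88% of 27025 promoters. In the sequences below these letters are in capitals.
Fos (chr12:85473847-85473872, plus strand): acagcgcttcTATAAAggcgccagct
Junb (chr8:84978733-84978758, minus strand): acaaattcagTATAAAagcttggggc
In Fos the letters begin 33 bases before the start in both annotations. In Junb they begin 0 bases from the deposited start, on the start base itself, and 30 bases before the start in GENCODE M21, which lies 30 bases further downstream.

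The letters TGACGTCA (the cAMP response element, 1.88% of promoters) and TGACTCA (the AP-1 site itself, 5.17%), searched on both strands, were found in 0 of the 9 windows, as was the CArG box (1.57%), the site of serum response factor. This says only that these exact letters are not in these windows. GC content of the coding sequence was high in most members, with 70.6% in Jund, 64.7% in Junb and 63.1% in Jun, and 58.5% to 62% in the FOS genes, against a median of 51.7% over 21866 protein-coding genes. Atf3 was the lowest of the members at 50.7%, followed by 58.5% in Fos.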
